A study of Saccharomyces cerevisiae with 8 samples.

Results

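The comparison set yap1d against WT in BY4742, a haploid laboratory strain of budding yeast (Saccharomyces cerevisiae) of mating type alpha. It rested on 4 of the 8 columns of the series, those whose labels name BY4742, and all 3127 genes and 3568 further features of the array were described in them. Both the yap1d and the WT culture had grown in the rich medium YPD up to an optical density of 0.5 before spending 2 h in 200 mM hydroxyurea (HU), so the drug was common to the groups and a response to it was not measured. Both cultures also carried the auxotrophic deletions of BY4742, which as background include LYS2, a gene of lysine synthesis, beside HIS3, LEU2 and URA3. The BY4742 cells lacking YAP1 were hybridised together with BY4742 WT cells on slides 21 and 22 of a spotted array, with the channels exchanged between the slides. Each slide was deposited as a fort and a faible column, which were treated as 2 scans of 1 hybridisation. A second pair of slides, 19 and 20, compared yap1d with WT under the same conditions in BY4741, a related strain of mating type a that carries LYS2 and lacks MET17.

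Yap1 is a transcription factor that collects in the nucleus when cells meet oxidants or certain drugs, and there activates genes for thioredoxins, peroxidases, glutathione metabolism and drug efflux. Hydroxyurea inhibits ribonucleotide reductase, the enzyme that makes deoxyribonucleotides, and stalls DNA replication. Cells of mating type alpha make the pheromone alpha-factor and the receptor for a-factor, while cells of mating type a make a-factor and the receptor for alpha-factor.

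Each value is a log ratio within 1 slide, turned to yap1d over WT, so a gene's value says nothing of its level. Base 2 was assumed, since the sources used here name no base. Nor do they give the channel on top of the ratio. A likely direction was therefore chosen, the one in which the thioredoxin gene TRX2 and the thioredoxin reductase gene TRR1, textbook targets that Yap1 activates, are lower in yap1d. The falls of these genes therefore support nothing, and if the direction is wrong every sign below turns. Whether slides 21 and 22 hold RNA of separate cultures is not in the labels, so the p-values may measure only technical spread. No feature was named for YAP1 alone, so the deletion was not checked, and a ratio of cultures of the same mating type does not check the mating type.

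The scans of slide 21 correlated across features at r = 0.966 and those of slide 22 at r = 0.972. Slide 22 was more spread than slide 21, with an SD over all units of 0.556 against 0.42 in the log2 ratios before turning. The channel effect, the part of a ratio that stays when the channels are exchanged, had an SD of 0.467 over units, compared with 0.181 for the effect of yap1d in BY4742. The tests below used limma on all 4 slides, with 1 channel term shared by the backgrounds and 1 effect of yap1d for each background, which left 1 residual degree of freedom. A gene is said to have fallen or risen only where its two-sided p, adjusted by Benjamini-Hochberg over all 6695 units, was under 0.05. Values are the mean log2 ratio of yap1d over WT on slides 21 and 22 ± SE of that fit.

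In BY4742 treated with HU, 39 of 3127 named genes (1.25%) were lower in yap1d and 6 (0.192%) were higher, 45 in all (1.44%). The largest falls were those of GPX2, a glutathione peroxidase gene, and of YNL134C, whose role is poorly known, both more than 4-fold. Genes of thioredoxin and superoxide metabolism, an alpha-factor gene, an iron-retention gene and 3 phosphate genes followed. Among named genes, HEM13, an enzyme of haem synthesis, had the largest rise. Among features without a single gene name, 41 were lower and 8 higher, so that 94 of all 6695 units were called (1.4%), 80 of them lower (1.19%) and 14 higher (0.209%).

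Every one of these calls rested on the shared channel term, since no gene passed in limma when it was left out (0 lower and 0 higher, against 11 and 0 at an unadjusted p under 0.05). With the channel effect left in, 29 of the 39 lower genes were below 0 on both slides, and all 6 higher genes were above 0 on both. Once the channel effect measured on the BY4741 slides was taken away, all 39 lower genes were below 0 and all 6 higher genes above 0 on both slides, which the choice of genes largely fixes. The split of the calls moved with the processing: it was 42 lower and 72 higher with columns as deposited and not centred, 74 and 64 in the faible columns alone, 9 and 0 in the fort columns alone, and 5 and 0 after quantile normalization.

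**Figure D1:**
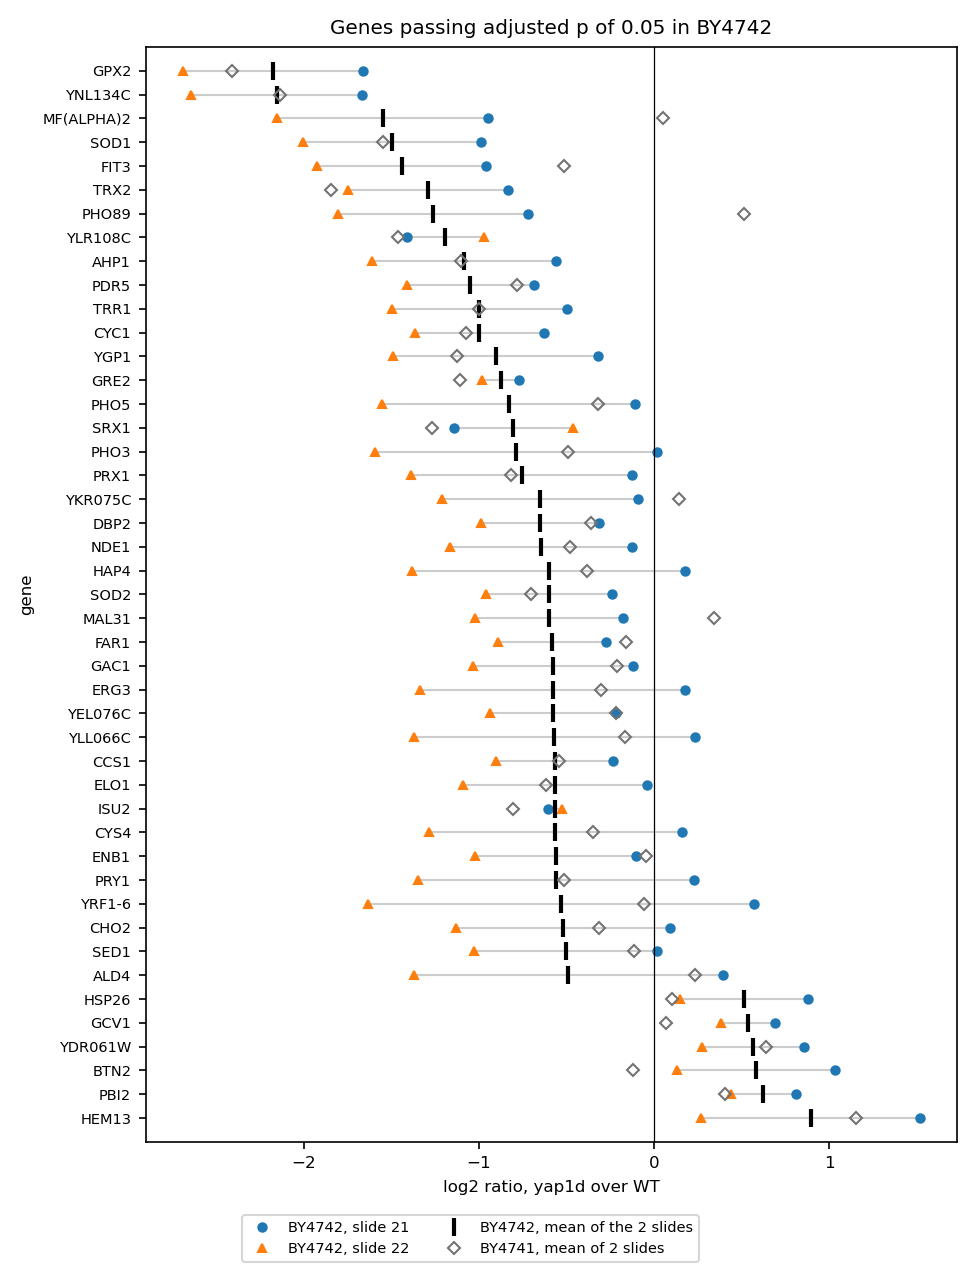
Log2 ratio of yap1d over WT for the 45 genes that passed in BY4742, with slide 21 as circles, slide 22 as triangles, the mean of both slides as a bar and the BY4741 mean as an open diamond. GPX2 and YNL134C lie farthest left at -2.17 and -2.15, and HEM13 farthest right at 0.89. Of the lower genes, PHO89, MAL31, ALD4, YKR075C and MF(ALPHA)2 have their BY4741 means above 0. Of the higher genes, BTN2 has its BY4741 mean below 0. Slide values hold the channel effect.

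GPX2 was at -1.66 on slide 21 and -2.69 on slide 22, with a mean of -2.17 ± 0.118 that is 4.51-fold lower in yap1d (adjusted p = 0.000133). Its scans of slide 21 were apart, at -1.95 in the fort and -1.36 in the faible column. YNL134C was at -1.67 and -2.64 on slides 21 and 22, and its mean of -2.15 ± 0.0924 is 4.45-fold lower (adjusted p = 3.7e-05). SOD1, which encodes the copper-zinc superoxide dismutase, was at -0.99 and -2.005, a mean of -1.50 ± 0.0971 (2.82-fold lower, adjusted p = 0.000234). All 3 genes were well below 0 on both slides and lower on slide 22. YLR108C, a gene of poorly known function, had the slides the other way round, with -1.41 on slide 21 and -0.97 on slide 22, and fell by 1.19 on the log2 scale (adjusted p = 0.00212). The sulfiredoxin gene SRX1, whose product repairs overoxidised peroxiredoxins, likewise stood lower on slide 21 (-1.14) than on slide 22 (-0.47) and fell by 0.80.

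The thioredoxin system had 5 of 9 measured members lower and none higher, against 1.25% and 0.192% of all named genes, and 2 of the 5 (TRX2 and TRR1) set the direction. Thioredoxins are small reductases that are recharged by thioredoxin reductase at the cost of NADPH and hand electrons to peroxiredoxins. TRX2 was at -0.83 on slide 21 and -1.75 on slide 22, and TRR1 at -0.50 and -1.50. The peroxiredoxin gene AHP1 fell by 1.08 ± 0.0942, but its scans disagreed, with -0.45 in the fort columns and -1.72 in the faible columns, and it was the only lower gene with a value of exactly 0 in a BY4742 column. PRX1, the mitochondrial peroxiredoxin gene, was at -0.13 on slide 21 and -1.39 on slide 22, and fell by 0.76. TRX1, the second cytosolic thioredoxin gene, did not pass (0.72 on slide 21, -0.74 on slide 22, mean -0.01). TRX1 was named after its values were seen.

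Among 7 measured superoxide and peroxide enzymes and copper factors, 3 were lower and none higher (1.25% and 0.192% of all named genes). Beside SOD1 these were SOD2, the mitochondrial manganese superoxide dismutase gene (-0.60 ± 0.107), and CCS1, which encodes the chaperone that loads copper into Sod1 (-0.57 ± 0.0929). SOD2 depended on the slide, with -0.83 from slide 21 and -0.38 from slide 22 once the BY4741 channel effect was removed. The copper transporter gene CTR1 (-0.42, adjusted p = 0.0924) and the flavohaemoglobin gene YHB1 (-0.40, adjusted p = 0.110) did not pass in limma. In the glutathione system only GPX2 fell among 15 measured members (6.67%, against 1.25% of all named genes). Of the glutathione synthesis genes, GSH1 had a mean of -0.45 (adjusted p = 0.103) and GSH2 one of -0.39 (adjusted p = 0.127), and the glutathione transferase gene ECM4 one of -0.45 (adjusted p = 0.0669).

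Over the whole list of reported Yap1 targets, 13 of 25 measured members were lower and none higher, against 1.25% and 0.192% of all named genes, and the median of the list was -0.57 against -0.00 for all named genes. The same members had a median of -0.70 in BY4741. The list holds TRX2 and TRR1 and was chosen with earlier results of these data known, so it is no independent check of the direction. Of the drug efflux genes, PDR5, a pump of the ABC family, was at -0.69 on slide 21 and -1.41 on slide 22 and fell by 1.05 ± 0.0922. It alone passed among 18 measured multidrug transporters (5.56% lower, against 1.25% of all named genes). SNQ2, another pump of that family, was at -0.38 (adjusted p = 0.222), the polyamine exporter gene TPO1 at -0.41 (adjusted p = 0.108), and the exporter genes FLR1 and ATR1, named after their values were seen, at 0.03 and 0.02. The reductase gene GRE2 had close values on the slides, -0.77 and -0.98, and fell by 0.88 ± 0.0920.

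None of the 5 measured relatives of YAP1 passed. Over all named genes 1.44% passed, so at that share a list of 5 would hold few calls or none. ARR1, an arsenic resistance regulator, was at -0.14, and YAP7, YAP6, YAP5 and CIN5 lay between -0.08 and -0.03. All 5 means were below 0, as were 50% of all named genes, and that of ARR1 had the lowest adjusted p (0.557 in limma). At an unadjusted p under 0.05 the count was 0 as well, against 13.4% of all named genes.

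**Figure D2:**
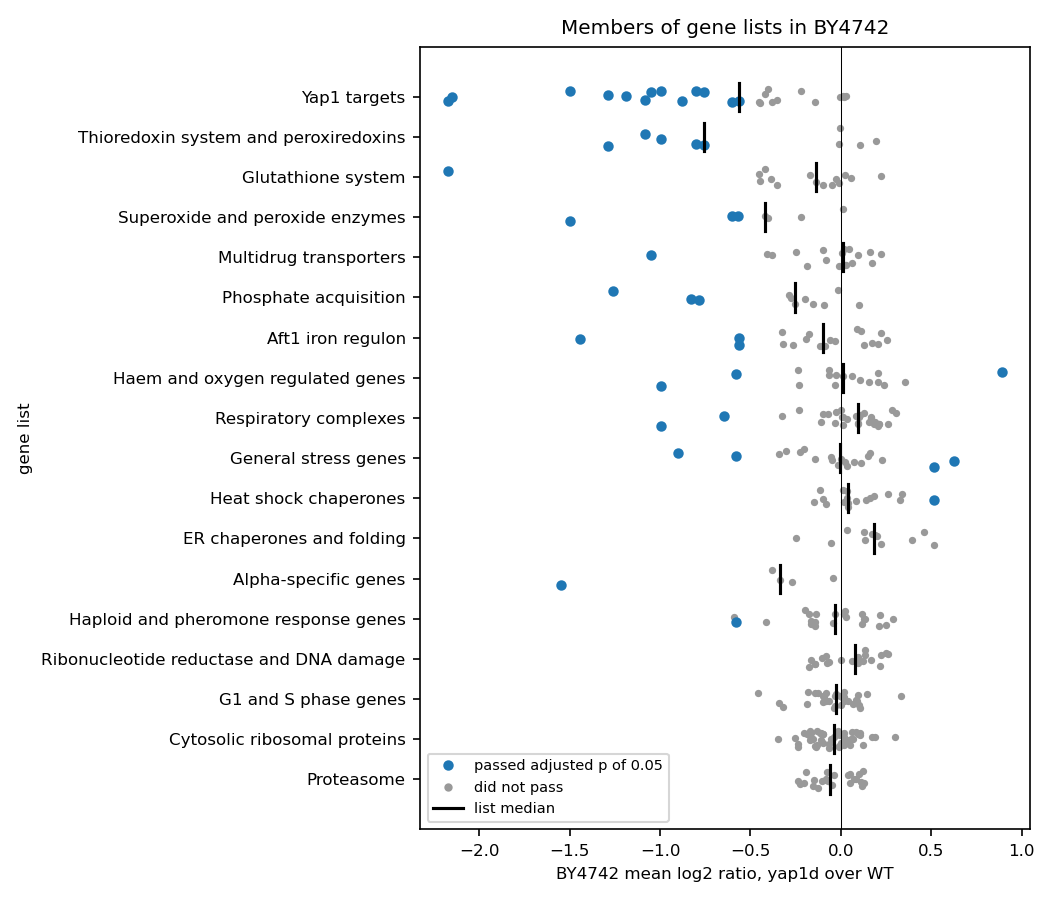
Mean log2 ratio of yap1d over WT in BY4742 for the members of 18 gene lists. Each point is 1 gene, large blue points passed, and the vertical bar is the list median, at -0.57 for Yap1 targets, -0.76 for the thioredoxin system and -0.04 for cytosolic ribosomal proteins.

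Phosphate acquisition had 3 of 11 measured members lower and none higher (1.25% and 0.192% of all named genes). In this list 10 of the 11 means were below 0, as were 50% of all named genes, with a list median of -0.26 (-0.01 in BY4741). PHO89, which encodes a plasma membrane cotransporter of sodium and phosphate, was at -0.72 on slide 21 and -1.80 on slide 22, and its mean of -1.26 ± 0.133 is 2.4-fold lower in yap1d (adjusted p = 0.00278). The acid phosphatase gene PHO5 was at -0.11 and -1.55 on slides 21 and 22, and fell by 0.83 ± 0.0964. PHO3, its neighbour and close paralog, was at 0.02 and -1.59 and fell by 0.79 ± 0.0920. PHO89 stood below 0 on both slides, whereas the falls of PHO5 and PHO3 appear in the raw ratio of slide 22 mainly, and both genes had a high channel effect (0.66 and 0.81). PHO3 and PHO5 are similar in sequence, and whether they cross-hybridise was not tested.

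In the Aft1 iron regulon, the genes that yeast induces when iron is short, 3 of 20 measured members were lower and none higher (1.25% and 0.192% of all named genes), with a list median of -0.10. FIT3, a cell wall mannoprotein that retains iron-siderophores, was at -0.96 on slide 21 and -1.93 on slide 22, a mean of -1.44 ± 0.0938 (2.72-fold lower, adjusted p = 0.000234). ENB1, a siderophore transporter gene, was at -0.10 and -1.02 on slides 21 and 22 and fell by 0.56 ± 0.0920. ISU2, which encodes a scaffold for iron-sulfur clusters, had nearly equal values, -0.61 and -0.52, and fell by 0.56 ± 0.0929 as the mean of 2 features. ISU2 was also the only 1 of 12 measured iron-sulfur assembly genes that passed (8.33% lower, against 1.25% of all named genes).

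Of 31 measured respiratory chain genes 2 were lower and none higher (1.25% and 0.192% of all named genes), with a list median of 0.09. CYC1, the gene of iso-1-cytochrome c, was at -0.63 on slide 21 and -1.36 on slide 22 and fell by 0.996 ± 0.0922. NDE1, a mitochondrial NADH dehydrogenase gene, fell by 0.65. HAP4, which encodes the activating subunit of a regulator of respiratory genes, fell by 0.60. It stood above 0 on slide 21 (0.18) and far below on slide 22 (-1.38). Those values hold its channel effect of 0.82. Less the BY4741 channel effect, HAP4 was at -0.68 and -0.52, a closeness that the choice of genes largely fixes. HEM13, the oxygen-requiring coproporphyrinogen oxidase of haem synthesis, was at 1.52 on slide 21 and 0.27 on slide 22, and its mean of 0.89 ± 0.0930 is 1.86-fold higher in yap1d (adjusted p = 0.00278). Of 17 measured haem and oxygen regulated genes, 2 were lower (CYC1 and the sterol desaturase gene ERG3) and HEM13 alone was higher. These shares are 11.8% and 5.88%, against 1.25% and 0.192% of all named genes.

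The other 5 genes that rose were near 1.5-fold. PBI2, a protease B inhibitor gene, was at 0.81 on slide 21 and 0.44 on slide 22, a mean of 0.62 ± 0.0947 (adjusted p = 0.0202). The protein sorting gene BTN2 was at 1.03 and 0.13 (mean 0.58), YDR061W, of poorly known function, at 0.86 and 0.28 (0.57), the glycine cleavage gene GCV1 at 0.69 and 0.38 (0.54) and the small heat shock protein gene HSP26 at 0.88 and 0.15 (0.51). These slide values hold the channel effect: less it, BTN2 was at 0.34 on slide 21 and 0.82 on slide 22, and HSP26 at 0.36 and 0.66. With print block medians removed, HSP26 (0.27), GCV1 (0.32) and YDR061W (0.35) did not pass in limma (adjusted p = 0.133, 0.167 and 0.123). HSP26 and PBI2 were also the 2 higher members among 20 measured general stress genes (10%, against 0.192% of all named genes). In that list YGP1, a secreted glycoprotein gene (-0.90 ± 0.0947), and GAC1, a phosphatase regulator gene (-0.58), were lower (10%, against 1.25%). HSP26 was the only 1 of 18 measured heat shock chaperone genes that passed (5.56% higher, against 0.192%). The median of the heat shock list was 0.04.

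No gene for chaperones and folding in the endoplasmic reticulum passed in limma (4 of 12 at an unadjusted p under 0.05, 3 of them above 0, against 13.4% of all named genes). Of the 12 measured means 2 lay below 0, against 50% of all named genes, with a list median of 0.18 (0.00 in BY4741). SIL1, which encodes a nucleotide exchange factor, had the most even values, 0.56 on slide 21 and 0.48 on slide 22 (mean 0.52, adjusted p = 0.0774 in limma). KAR2, the chaperone that Sil1 serves, was at 0.96 and -0.04 (mean 0.46, adjusted p = 0.0611), and FPR2, a prolyl isomerase gene, at 1.09 and -0.31 (mean 0.39). The zinc transporter gene ZRT1 was at 0.60 and 0.40 (mean 0.50, adjusted p = 0.0637), and none of 10 measured zinc genes passed (2 at an unadjusted p under 0.05).

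Of the remaining lower genes, MAL31, a maltose permease gene, was at -0.18 on slide 21 and -1.02 on slide 22 (mean -0.60 ± 0.104). Less the BY4741 channel effect MAL31 was at -0.40 from slide 21 and -0.80 from slide 22, and with print block medians removed it did not pass (-0.46, adjusted p = 0.116 in limma). DBP2, an RNA helicase gene and the only lower member of 48 measured ribosome biogenesis genes, fell by 0.65. That share, 2.08%, is near the 1.25% of all named genes that were lower. YKR075C, of poorly known function, fell by 0.65, but was at -0.33 from slide 21 and -0.97 from slide 22 once the BY4741 channel effect was removed. The sulphur amino acid gene CYS4 (-0.56), the wall protein gene SED1 (-0.50) and ERG3 (-0.58) stood above 0 on slide 21, at 0.16, 0.02 and 0.18. So did PRY1, a sterol binding protein gene (mean -0.56), at 0.23, CHO2, a phospholipid methylation gene (mean -0.52), at 0.09, and ALD4, a mitochondrial aldehyde dehydrogenase gene (mean -0.49), at 0.39. The slide 21 values of CYS4, SED1, ERG3, PRY1, CHO2 and ALD4 hold the channel effect. Less it, both slides of each lay between -0.61 (ERG3, slide 22) and -0.415 (ALD4, slide 21), which the choice of genes largely fixes. With print block medians removed, YKR075C, CYS4, ALD4 and CHO2 (-0.34) did not pass in limma (adjusted p = 0.0509, 0.0601, 0.0523 and 0.0847). The fatty acid elongase gene ELO1 fell by 0.57, with -0.77 from slide 21 and -0.36 from slide 22 less the channel effect. YEL076C, YLL066C and YRF1-6, which lie in repeated subtelomeric elements with near-identical copies and are uncertain for that reason, had means of -0.58, -0.57 and -0.53. YRF1-6 was at 0.57 on slide 21 and -1.64 on slide 22, YLL066C at 0.23 and -1.37, and YEL076C at -0.22 and -0.94. Less the channel effect, YRF1-6 was at -0.57 from slide 21 and -0.495 from slide 22, and YLL066C at -0.53 and -0.605. YEL076C was then at -0.82 from slide 21 and -0.34 from slide 22. HAP4, YEL076C, YLL066C, YRF1-6, ELO1, PRY1, CHO2 and ALD4 were named after their values were seen.

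The genes of mating type were described because BY4742 is the alpha background. MF(ALPHA)2, the lesser of the genes for the alpha-factor precursor, was at -0.95 on slide 21 and -2.15 on slide 22, and its mean of -1.55 ± 0.255 is 2.93-fold lower in yap1d (adjusted p = 0.0264). The fall was uneven: less the BY4741 channel effect, slide 21 alone gave -0.57 and slide 22 alone -2.53. That channel effect comes from cells of mating type a, which do not make alpha-factor. Whether it holds for this gene in BY4742 was not tested. With print block medians removed MF(ALPHA)2 did not pass (-1.61, adjusted p = 0.133 in limma). MF(ALPHA)1, the main alpha-factor gene, did not follow, with -0.75 and 0.67 on slides 21 and 22 and a mean of -0.04 ± 0.0920. STE3, the a-factor receptor gene, had a mean of -0.38 ± 0.303, the agglutinin gene SAG1 one of -0.34 ± 0.200 and AFB1, which encodes an a-factor barrier, one of -0.27 ± 0.253. None of these 3 passed, and their slides differed by 0.7 or more on the log2 scale. All 5 measured alpha-specific means were below 0, as were 50% of all named genes. Less the BY4741 channel effect, the list median was 0.395 from slide 21 and -1.24 from slide 22. The mating type of BY4741 limits this correction for the whole list.

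**Figure D3:**
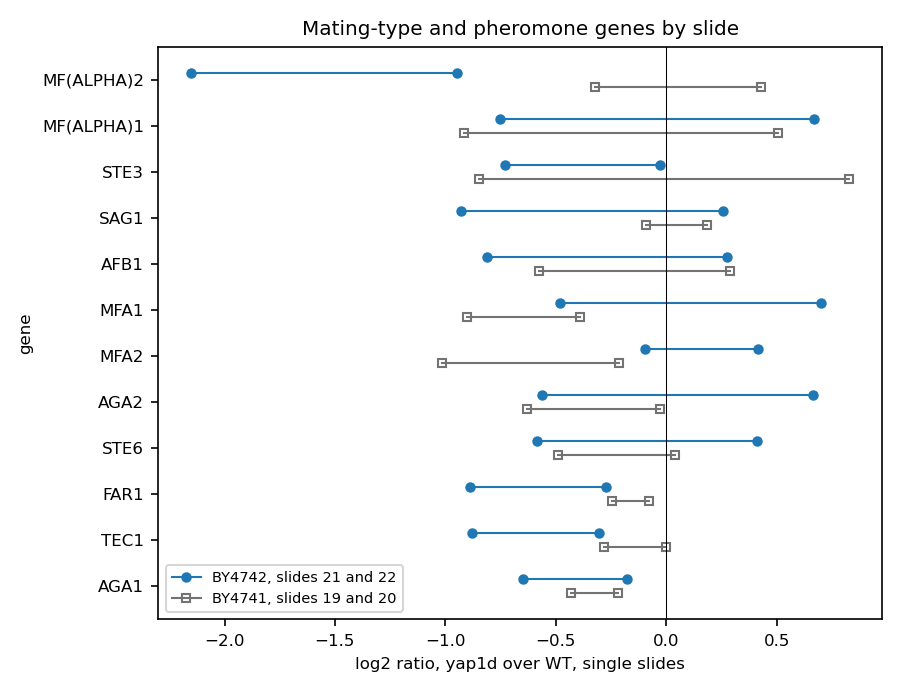
Log2 ratio of yap1d over WT for mating-type and pheromone genes on single slides, with BY4742 slides as filled circles above and BY4741 slides as open squares below in each row. MF(ALPHA)2 has both BY4742 slides below 0 at -0.95 and -2.15, while MF(ALPHA)1 straddles 0.

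The 4 measured a-specific genes, which alpha cells repress, had means between -0.09 and 0.16 in BY4742. None passed, against 1.44% of all named genes, and none had an unadjusted p under 0.05, against 13.4%. Their median was 0.08, and -0.02 after the slides were scaled to 1 spread. Less the BY4741 channel effect it was -0.6175 from slide 21 and 0.745 from slide 22, with the same limit. MFA1 and MFA2, which encode a-factor, had means of 0.11 and 0.16 in BY4742, compared with -0.65 and -0.62 in BY4741. Alpha cells repress both genes, so these values do not compare the effect of yap1d on genes expressed in both backgrounds. Among 23 measured haploid and pheromone response genes, FAR1, an inhibitor of the cell cycle kinase during mating, was at -0.27 on slide 21 and -0.89 on slide 22 and fell by 0.58 ± 0.107 (adjusted p = 0.0427). FAR1 was at -0.36 from slide 21 and -0.81 from slide 22 less the channel effect, and it did not pass after scaling (adjusted p = 0.136). TEC1, a factor for mating and filamentous growth genes, had a similar mean of -0.59 ± 0.139 without passing (adjusted p = 0.125), and AGA1, the anchor of agglutinin, one of -0.41.

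LYS2, which as background neither culture carries, read -0.20 on slide 21 and 0.20 on slide 22, with a mean of -0.00 ± 0.163. The other measured genes of lysine synthesis and uptake did not pass either: LYS5 was at 0.13, ARO8 at 0.07, the permease gene LYP1 at 0.02 and LYS9 at -0.09. MET17, which BY4742 carries and BY4741 lacks, was at 0.43 and -0.32 on slides 21 and 22 (mean 0.06 ± 0.284). LYS2 and MET17 had larger errors than LYP1 (0.0925) or ARO8 (0.0933), and each is missing from 1 of the backgrounds that share the channel term; whether this sets the error was not tested.

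The lists for the drug's own target and for the cell cycle held no called gene in BY4742. Over all named genes 1.44% were called, so at that share lists this short would hold few calls or none. FAR1, counted above with the pheromone response genes, is not in these lists. None of 20 measured ribonucleotide reductase and DNA damage genes passed in limma (3 at an unadjusted p under 0.05, all above 0), with a list median of 0.08, and RNR2 and RNR4, small subunit genes named after their values were seen, were at -0.06 and -0.11. No member passed among 32 genes for G1 and S phase (4 at an unadjusted p under 0.05, against 13.4% of all named genes), 17 for G2 and M phase (1), 15 for mitotic exit (5), 4 for histones (1) or 24 for the proteasome (2). The same held for 18 genes of glycolysis and glycerol (3 unadjusted), 15 of NADPH and nitrogen (7) and 49 of the mitochondrial ribosome (1). Of 49 cytosolic ribosomal protein genes none passed (4 unadjusted) and 31 lay below 0, with a median of -0.04 that became 0.04 after scaling of the slides. Their paralogs are near-identical, so single values are uncertain.

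Most called genes had a channel effect above 0. In the median, the 39 lower genes had a channel effect of 0.47, against 0.07 over all named genes. It was above 0 in 36 of the 39, compared with 56.6% of named genes. In all 6 higher genes it was above 0 too, from 0.13 (GCV1) to 0.60 (HEM13). Over all units the effect of yap1d in BY4742 correlated with the channel effect of the BY4741 slides at r = -0.327, a description over features that share slides and dyes; after each slide was scaled to the same median absolute deviation this r was 0.06. With that scaling 15 of the 39 lower genes and 1 of the 6 higher genes passed, and no others. They were GPX2 (-2.28), YNL134C (-2.26), SOD1 (-1.54), FIT3 (-1.48), YLR108C (-1.33), TRX2 (-1.32), PHO89 (-1.28), AHP1 (-1.09), PDR5 (-1.08), CYC1 (-1.02), TRR1 (-0.997), GRE2 (-0.93), SRX1 (-0.93), YGP1 (-0.88), PHO5 (-0.78) and, above 0, HEM13 (1.08). MF(ALPHA)2 kept its size (-1.58) without passing (adjusted p = 0.0992), PHO3 was at -0.72 (adjusted p = 0.0501), PRX1 at -0.71 and BTN2 at 0.71 (both adjusted p = 0.0512). What part the unequal spread of the slides had in the calls that were lost was not tested.

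**Figure D4:**
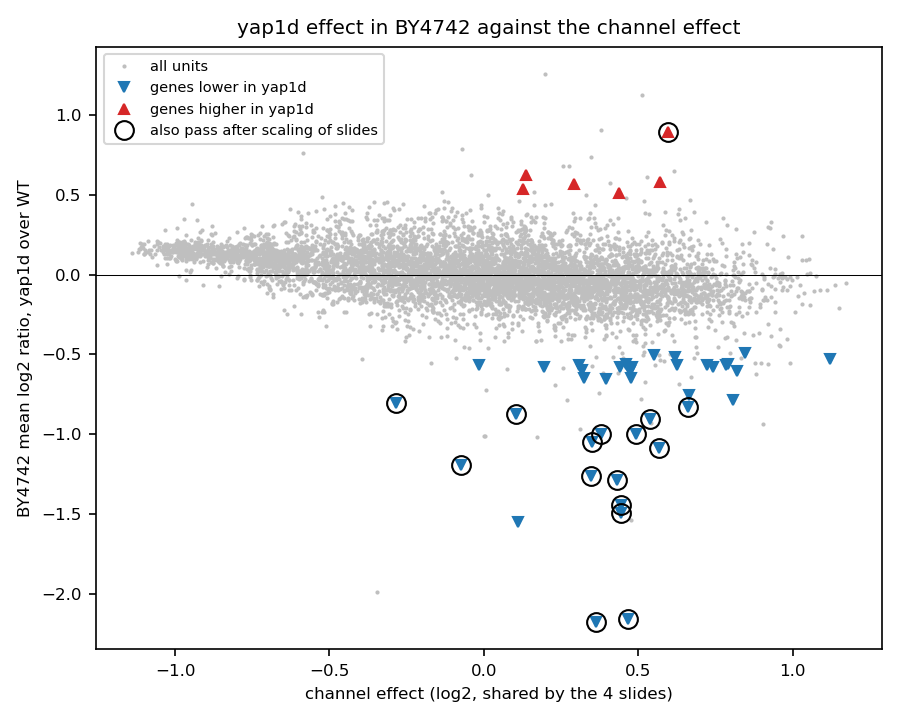
Mean log2 ratio of yap1d over WT in BY4742 against the channel effect shared by the 4 slides, 1 point per unit. Lower genes are blue and higher genes red triangles, and circles mark the 16 genes that also passed after scaling of the slides. Most lower genes and all higher genes lie right of 0 on the channel axis.

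The last question was whether yap1d acted differently in BY4742 and BY4741. In the fit of the 4 slides no named gene passed for BY4742 minus BY4741 (limma, smallest adjusted p = 0.0575), and 395 genes (12.6%) had an unadjusted p under 0.05. Without replicates beyond 2 slides a background, this does not show that the effects were equal. Of the genes lower in BY4742, 20 were also lower in BY4741, which is 51.3% of the 39 in BY4742 and 69% of the 29 in BY4741 (0.927% of named genes). HEM13 and YDR061W were the 2 genes higher in both. The fits of the backgrounds share the channel term. In 66 genes (2.11%) all columns of BY4742 lay on one side of 0 and all columns of BY4741 on the other.

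The 10 genes with the largest difference included falls that were larger in BY4742. PHO89 was at -1.26 in BY4742 and 0.52 in BY4741 (adjusted p of the difference 0.0575), MF(ALPHA)2 at -1.55 and 0.05 (0.267), and FIT3 at -1.44 and -0.51 (0.0791). BY4741 cells, of mating type a, do not make alpha-factor. For MF(ALPHA)2 the values therefore do not compare the effect of yap1d on a gene expressed in both backgrounds. MAL31 was at -0.60 in BY4742 and 0.34 in BY4741. GDH1, a glutamate dehydrogenase gene, was at 0.35 in BY4742 and 1.26 in BY4741, where alone it passed (difference adjusted p = 0.0795). UBX6 stood at 0.25 and -0.54, and YLR297W at 0.09 and -0.70, in BY4742 and BY4741. In contrast YNL134C (-2.15 and -2.13), AHP1 (-1.08 and -1.10, with scans that disagreed) and SOD1 (-1.50 and -1.54) had nearly equal means in BY4742 and BY4741. TRX2 (-1.29 and -1.845) and SRX1 (-0.80 and -1.265) were less far below 0 in BY4742, and PDR5 (-1.05 and -0.78) was further below. These differences did not pass in limma (adjusted p = 0.301, 0.319 and 0.467).

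**Figure D5:**
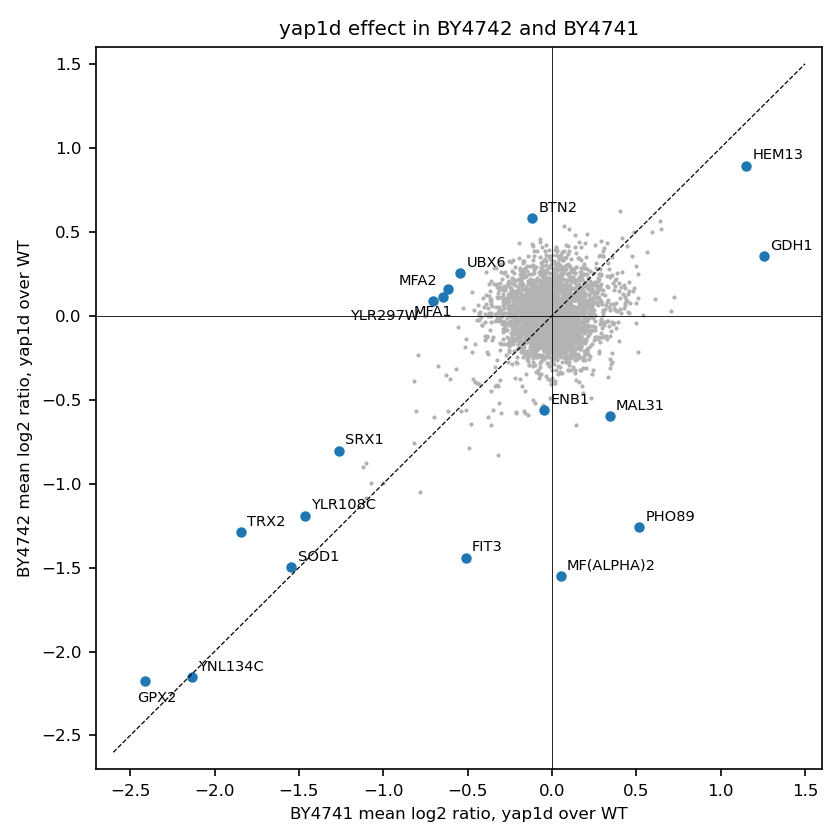
Mean log2 ratio of yap1d over WT in BY4742 (vertical) against BY4741 (horizontal), 1 point per named gene, with equal effects on the dashed line. GPX2, YNL134C and SOD1 lie near the line, and PHO89, MF(ALPHA)2 and FIT3 lie below it.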

How the data were processed

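The values were taken as deposited by the authors, as log2 ratios of the channels of a slide. The base is an assumption, and background correction, normalization and the channel on top are not given in the sources used here. RNA had been labelled indirectly, per the labels' protocols. Of 6912 features, 3344 had 1 gene symbol (3343 matched the R64 RefSeq table), 387 had several and 3181 were unnamed here. The features of 207 genes were averaged, giving 6695 units. Columns were centred on their medians, scans of a slide averaged, and slides turned by the labelled channels. The test was lmFit and eBayes (limma 3.58.1, R 4.3.3). It was also run on simulated slides with 1 channel effect shared by the backgrounds and equal spread between slides. That run cannot speak to the unequal spread of the real slides, so it does not back the calls. On the real slides the variance prior had 7.48 degrees of freedom and a common SD of 0.138.

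The members and the gene lists were chosen with earlier results of these data known. The rule for naming took up to 20 lowest and 20 highest genes that passed with the same sign in both scans, which gave 20 and 6. It also took the 5 or fewer members with the largest absolute means in each list, and the 10 genes that differed most between backgrounds. All measured genes of mating type, lysine, auxotrophy and the YAP family came under it too. Not every gene or list under the rule is named above. Of 36 lists, 35 had measured members. The number of arrays limits the precision. Alternatives varied the scan, centring, scaling, features, filters, channel term and prior. Promoter sequences were not used here.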

Additional observations from a re-analysis of the deposited data

Results flagged for a closer look

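The genes screened here were the 20 lowest and 6 highest that passed and the 10 that differed most between backgrounds. For 2 of them every BY4742 column lay on one side of 0 and every BY4741 column on the other. PHO89 differed by -1.776 on the log2 scale for BY4742 minus BY4741 (-1.26 in BY4742 and 0.52 in BY4741), with an adjusted p of 0.0575 for the difference in limma. MAL31 differed by -0.9413 (-0.60 in BY4742 and 0.34 in BY4741), with an adjusted p of 0.0993. Neither difference passed. Over all named genes, 66 (2.11%) showed this arrangement of columns.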

How the results depend on the processing

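The counts of 39 lower and 6 higher genes, and of 0 genes that differed between backgrounds, moved as follows. The fort columns alone gave 9 lower and 0 higher, and the faible columns alone 74 lower, 64 higher and 73 that differed. Values as deposited gave 42 lower, 72 higher and 15 that differed. The robust option of limma gave 33 lower and 4 higher, without MF(ALPHA)2. Scaling of the slides gave 15 lower and 1 higher, and quantile normalization 5 and 0. The genes that kept the call under quantile normalization were GPX2, YNL134C, SOD1, TRX2 and FIT3. Fitting each feature separately, or leaving out units with an exact 0, gave 1 gene that differed. Leaving out units whose scans differed by over 0.5 gave 10 higher and 5 that differed, with GPX2 and AHP1 among the units left out. The BY4742 slides alone, and 4 slides without a channel term, gave 0 lower and 0 higher (limma, 12 and 11 lower at an unadjusted p under 0.05). One coefficient for both backgrounds gave 37 lower and 11 higher, and UBX6 turned to -0.15 there. A mean of at least 1 in size in both scans, with no test, held for 9 lower and 0 higher genes. Removing print block medians, which was chosen after seeing the data, kept 33 of the lower and 3 of the higher calls (not HSP26, GCV1 or YDR061W) and gave 36 and 8. The degrees of freedom of the variance prior ranged from 2.91 without a channel term upwards to infinite in the faible columns and the values as deposited. They were 55.6 for the BY4742 slides alone. What part they had in the counts was not tested. Leaving out a slide left no residual degrees of freedom and so no test; 8 of the 45 called genes then moved by over 1.5 times (MF(ALPHA)2, YKR075C, SOD2, MAL31, FAR1, YEL076C, ELO1 and BTN2). BTN2 was at 0.34 from slide 21 and 0.82 from slide 22. Without slide 19 or 20 alone the BY4742 means stayed the same. Each ratio already pairs yap1d with WT on 1 slide. The slides share no replicate numbers between backgrounds, so BY4742 and BY4741 were not paired with each other.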
